A study of Rattus norvegicus and Mus musculus with 74 samples.

Results

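H3K9Ac, an acetylation of histone H3, and H3K4me3, a trimethylation of the same histone tail, were compared within the brain cortex of control rats. The members were the regions of the deposited rat table in which an interval had been called in all 3 control libraries of H3K9Ac or in all 3 of H3K4me3, 14054 of 72824 regions. Of these, 11550 had intervals in all 3 libraries of both marks, 1382 in all 3 of H3K9Ac but not of H3K4me3, and 1122 the reverse. Just outside the rule lay 1407 regions with intervals in 2 of 3 libraries of at least 1 mark and in all 3 of neither. Their median signal was 2.73 for H3K9Ac and 1.90 for H3K4me3. It was 3.21 and 1.48 in the regions that entered through H3K9Ac alone, 2.70 and 4.67 in those that entered through H3K4me3 alone, and 6.24 and 14.7 in the regions with intervals for both marks.

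The controls were healthy Sprague-Dawley rats that had received vehicle, with 3 libraries per mark. Rats exposed to valproate (VPA) by prenatal injection and then given vehicle, and such rats given TAK-418, which inhibits LSD1, a histone demethylase, served as libraries that had no part in the choice of members. Control C57BL/6J mice, also given vehicle, served as a second species. Each of these groups had 3 libraries per mark. No source used here gives the animals' age. Nothing states whether replicate libraries stem from different animals, and p-values therefore cover the spread between these samples alone, which may be technical.

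Both marks sit on the nucleosomes that flank active transcription start sites. H3K4me3 is laid down by SET1 and MLL complexes, which are drawn to unmethylated CpG islands, and it can be present where transcription is low. H3K9Ac is laid down by acetyltransferases such as KAT2A, is removed by histone deacetylases and sirtuins, turns over quickly, and is also found at enhancers, where H3K4me3 is scarce. In the cortex, which holds neurons and glia that have mostly left the cell cycle, the marks of bulk tissue are averages over all these cells, and fewer marked cells and less mark per cell cannot be told apart.

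Signal is the authors' mean value of a region in a library. The sum of the signal over the members ran from 85236 to 101751 in the H3K9Ac libraries and from 158795 to 230867 in the H3K4me3 libraries. Since no source gives a scaling that makes the marks comparable, each library was turned into percentile ranks over the 14054 regions, and the difference between the marks is the mean H3K9Ac percentile minus the mean H3K4me3 percentile, in points. The ranks of the marks were alike as a whole. Spearman's rho across the 14054 regions, which are not independent and share the region boundaries, was 0.870 to 0.914 for the 9 pairs of 1 library of each mark. It was 0.961 to 0.970 between H3K9Ac libraries and 0.945 to 0.979 between H3K4me3 libraries.

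Among the promoters with the largest shortfall of acetylation were those of Bard1, Cenpw and Cep72, which act in DNA repair, at the centromere and at the centrosome. Among those with the largest excess were Dnmt3a and Hdac5, which act on chromatin, and the G protein modulator Gpsm1. Their promoters are printed to show what stands at the starts that RefSeq gives. Each is a window of 300 bases that ends just after the start of the gene in RefSeq's GRCr8 assembly, on the strand given. The signal was mapped to rn5, and the start that RefSeq gives need not be the one listed in the deposited table. For Dnmt3a the window has 74.3% G+C and 21 CG dinucleotides, while the region compared holds no CpG island. Whether that window lies in the region is not known. Capitals mark matches, on either strand, to 6 searched motifs, which did not overlap each other in these sequences. They were TATAAA (the TATA box), TGACGTCA (the site of CREB), CACGTG (the E-box of clock and MYC factors), GCGCATGC (the site of NRF1), TTTGAA (the core of the cell cycle homology region) and TTTGGCGC (the site of E2F).
Bard1, chr9:80143706-80144005, minus strand: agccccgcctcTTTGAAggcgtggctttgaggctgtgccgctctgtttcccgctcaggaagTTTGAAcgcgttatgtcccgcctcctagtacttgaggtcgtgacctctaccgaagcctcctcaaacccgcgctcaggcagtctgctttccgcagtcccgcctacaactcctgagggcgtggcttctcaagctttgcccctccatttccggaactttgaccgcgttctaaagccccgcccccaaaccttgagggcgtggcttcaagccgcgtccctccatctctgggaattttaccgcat
Cenpw, chr1:29353720-29354019, plus strand: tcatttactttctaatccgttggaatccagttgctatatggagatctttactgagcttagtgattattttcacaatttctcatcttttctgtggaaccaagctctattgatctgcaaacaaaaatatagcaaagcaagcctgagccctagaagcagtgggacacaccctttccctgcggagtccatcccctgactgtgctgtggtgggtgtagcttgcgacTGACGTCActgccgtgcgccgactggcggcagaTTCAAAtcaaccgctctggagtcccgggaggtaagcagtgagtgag
Cep72, chr1:31053664-31053963, plus strand: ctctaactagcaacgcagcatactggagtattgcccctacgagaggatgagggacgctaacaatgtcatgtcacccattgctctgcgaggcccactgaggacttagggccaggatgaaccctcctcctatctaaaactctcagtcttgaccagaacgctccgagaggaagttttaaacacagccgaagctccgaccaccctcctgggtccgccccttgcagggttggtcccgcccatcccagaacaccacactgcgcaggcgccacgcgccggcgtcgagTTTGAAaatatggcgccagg
Dnmt3a, chr6:32598352-32598651, plus strand: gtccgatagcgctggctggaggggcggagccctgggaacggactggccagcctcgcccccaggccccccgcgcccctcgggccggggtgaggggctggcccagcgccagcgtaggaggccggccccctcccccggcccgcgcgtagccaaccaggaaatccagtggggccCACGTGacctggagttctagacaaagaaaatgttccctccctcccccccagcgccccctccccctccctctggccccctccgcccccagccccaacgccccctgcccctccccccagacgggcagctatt
Hdac5, chr10:87688005-87688304, minus strand: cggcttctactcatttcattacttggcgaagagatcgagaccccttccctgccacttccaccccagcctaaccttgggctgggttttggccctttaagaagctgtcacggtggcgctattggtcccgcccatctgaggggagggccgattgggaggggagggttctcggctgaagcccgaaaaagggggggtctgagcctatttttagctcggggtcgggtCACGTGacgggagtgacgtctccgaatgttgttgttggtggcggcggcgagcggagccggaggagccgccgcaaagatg
Gpsm1, chr3:29538703-29539002, plus strand: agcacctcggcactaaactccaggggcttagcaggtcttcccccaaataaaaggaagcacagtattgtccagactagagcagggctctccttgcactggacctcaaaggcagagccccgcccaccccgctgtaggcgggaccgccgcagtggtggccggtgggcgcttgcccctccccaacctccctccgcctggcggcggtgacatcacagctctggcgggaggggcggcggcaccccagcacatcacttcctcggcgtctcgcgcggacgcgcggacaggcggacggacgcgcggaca

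Bard1 held TTTGAA at 2 places, Cenpw held it on the other strand, downstream of a CREB site, and Cep72 held it at 1 place. Dnmt3a and Hdac5 each held 1 E-box, and Gpsm1 held none of the 6 motifs. The number of CG dinucleotides ran from 10 in Cenpw, at 48.7% G+C, to 27 in Gpsm1, at 67.7%. TTTGAA and TTTGGCGC were added to the search after the leading genes had been seen. Over the single-gene promoter regions that were called and differed by at least 20 points, a RefSeq promoter was found by symbol for 145 of 179 genes with a higher H3K4me3 rank and for 79 of 97 with a higher H3K9Ac rank. TTTGAA occurred in 21.4% of the first and 6.33% of the second, in 9.49% of 2749 uncalled promoters and in 18.1% of all 27457 RefSeq promoters. The median G+C content was 60.7% and 65.0%, with medians of 21 and 22 CG dinucleotides. The TATA box occurred in 6.21% and 6.33% (14.3% of all promoters), the CREB site in 3.45% and 2.53% (1.91% of all), the E-box in 7.59% and 6.33% (6.65% of all), the NRF1 site in 3.45% and 2.53% (2.66% of all) and the E2F site in 1.38% and 0% (0.521% of all). In the 2749 uncalled promoters these 5 shares were 6.44%, 2.98%, 9.17%, 4.98% and 0.946%. The median G+C content was 63.7% in the uncalled promoters and 52.3% in all RefSeq promoters, which are thus the less similar background. Among called promoters of any size, a RefSeq promoter was found for 78.9% of genes with a higher H3K4me3 rank and 77.2% with a higher H3K9Ac rank. TTTGAA occurred in 16.0% of these 645 and 6.30% of these 254 promoters, both below the 18.1% of all RefSeq promoters. With under 80% of the genes matched, no comparison is drawn from these shares.

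In the control rats, 4803 of the 14054 regions, or 34.2%, differed in rank between the marks at an adjusted p under 0.05 (limma, Benjamini-Hochberg adjustment). H3K9Ac ranked higher in 2604 of them (18.5%) and H3K4me3 in 2199 (15.6%). The difference reached 20 points or more in 766 and 405 of them. The 3 libraries of each mark did not overlap, with H3K9Ac above, in 24.9% of all regions, and with H3K4me3 above in 23.1%. In the plot of both ranks, regions of the lowest H3K4me3 twentieth had H3K9Ac percentiles of 6.29 to 28.0 (10th to 90th percentile of regions). The range was 26.7 to 62.8 in twentieth 9 and 91.3 to 99.4 in the highest. Regions at the floor of H3K4me3 have little room to rank lower in H3K9Ac. In the lowest twentieth by H3K4me3 rank, 612 of 703 regions were called with a higher H3K9Ac rank, and in the highest twentieth 2 and 31 of 703 were called with a higher H3K9Ac and a higher H3K4me3 rank. The rule of membership shaped part of this. Regions that entered through H3K9Ac intervals alone had to be low in H3K4me3, and 73.8% of them were called with a higher H3K9Ac rank, while 55.0% of those that entered through H3K4me3 alone were called the other way. Over the 11550 regions with intervals for both marks, re-ranked among themselves, 1574 were called with a higher H3K9Ac rank and 1092 with a higher H3K4me3 rank. With each region's highest signal in place of its mean signal, the counts were 769 and 703 of 14054, and of the 4803 regions 1164 were called the same way and 5 the opposite way.

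**Figure D1:**
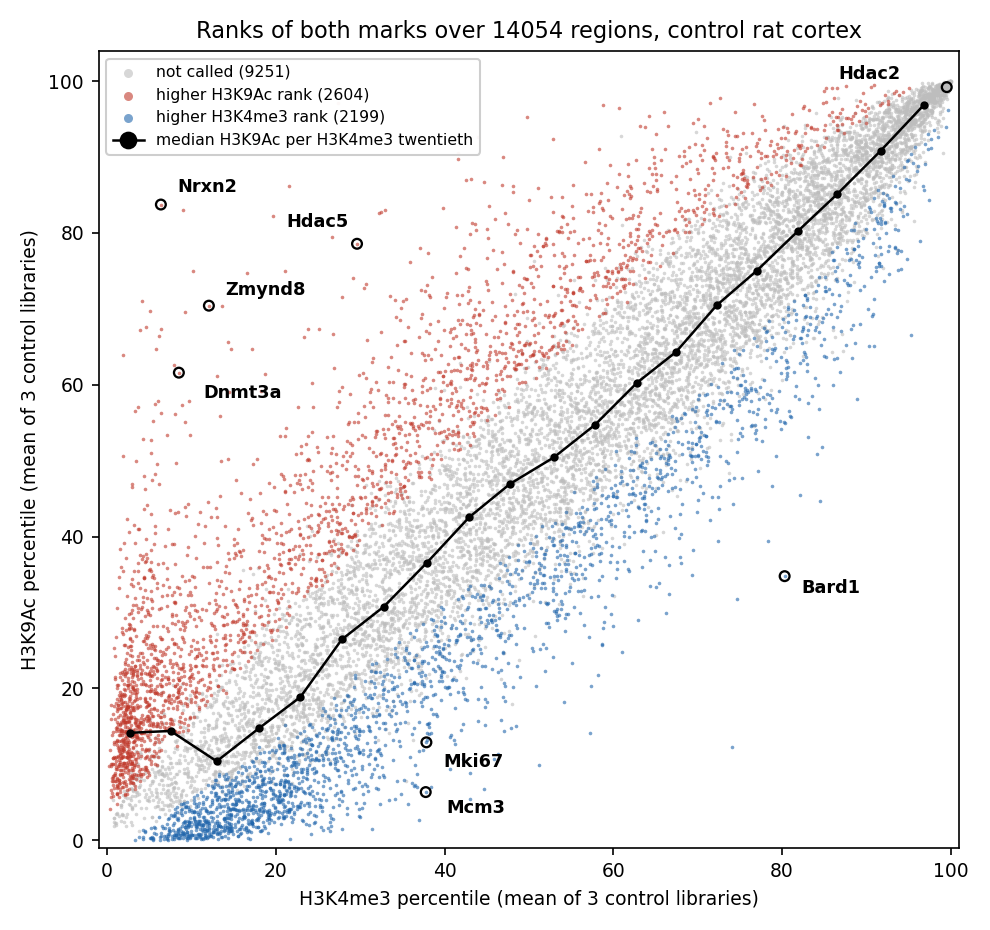
Each point is 1 of 14054 regions, placed by its mean H3K4me3 percentile (x axis) and mean H3K9Ac percentile (y axis) over 3 control libraries each, with colours for the calls and a line through the median of each twentieth. The region inside Nrxn2 (percentiles 83.7 for H3K9Ac and 6.37 for H3K4me3), Zmynd8 (70.4 and 12.1), Dnmt3a and Hdac5 stand far above the line, Bard1 (34.8 and 80.3), Mcm3 and Mki67 far below it, and Hdac2 at the top of both marks.

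Among promoter regions that list 1 gene, the 12 with the largest excess of H3K4me3 rank were those of Bard1, Cenpw, Sgol1, Lrriq1, Odf2l, Diaph3, Rad18, Cep72, Ercc6l, E2f7, Pramef8 and Slc16a10. They were named for the size of the difference and for not overlapping, so their values are a description. Bard1, the partner of BRCA1 in DNA repair, had H3K4me3 signals of 18.7, 25.5 and 22.7 and H3K9Ac signals of 4.57, 4.49 and 4.31 at chromosome 9, 78141600 to 78147599, a region over its start that holds 1 CpG island. It stood at percentile 80.3 ± 1.6 for H3K4me3 and 34.8 ± 4.4 for H3K9Ac (SD, n = 3), a difference of -45.5 ± 3.50 points (SE, adjusted p = 0.00029). Among regions of the same H3K4me3 twentieth its acetylation lay at percentile 0.142. Cenpw, a centromere protein, had H3K4me3 signals of 11.2, 14.9 and 16.1 and H3K9Ac signals of 2.5, 4.23 and 2.21 (chromosome 1, 31347200 to 31349199). Its second H3K9Ac library stood above the others, and the difference was -43.2 ± 8.72 points (adjusted p = 0.0077).

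Sgol1 (the protector of centromeric cohesion), Ercc6l (a helicase of mitotic chromosomes), Diaph3 (a formin that builds actin filaments), Cep72 (a protein around the centrosome) and E2f7 (a repressor of cell cycle genes) differed by -42.8, -35.2, -38.9, -35.9 and -34.3 points. Rad18, a ubiquitin ligase of DNA damage tolerance, differed by -36.4 ± 4.89 points. The remaining members of the 12 were Odf2l at -39.8, Lrriq1 at -41.4, Pramef8 at -34.3 and Slc16a10, a transporter of aromatic amino acids, at -33.4 points. The 12 regions were 1999 to 9999 bp long, with a median of 5799 bp. Of these 12, 11 kept their call with the highest signal. Sgol1 did not (-15.1 points, adjusted p = 0.086).

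The 12 promoter regions with the largest excess of H3K9Ac rank were those of Zmynd8, Dnmt3a, Hdac5, Cxxc5, Ralgds, Gpr56, Trak1, Coro2b, Gpsm1, Zfp532, Src and Setd8. Zmynd8, a reader of acetylated and methylated histones, had H3K9Ac signals of 8.62, 6.85 and 7.75 against H3K4me3 signals of 2.54, 2.96 and 2.82, and stood at percentiles 70.4 ± 3.0 and 12.1 ± 0.22 (chromosome 3, 168675200 to 168776599, with 2 CpG islands). The difference was 58.4 ± 2.91 points (adjusted p = 0.00015). Dnmt3a, a DNA methyltransferase that is abundant in postnatal neurons, had H3K9Ac signals of 7.22, 6.03 and 7.01 and H3K4me3 signals of 1.77, 2.10 and 2.27, at percentiles 61.6 ± 4.2 and 8.51 ± 0.88 (chromosome 6, 38040800 to 38057599, no CpG island), a difference of 53.1 ± 3.08 points. Hdac5, a deacetylase that shuttles out of the nucleus with neuronal activity, had H3K9Ac signals of 10.2, 7.26 and 9.35 and H3K4me3 signals of 4.95, 7.87 and 7.14, a difference of 49.0 ± 4.23 points (chromosome 10, 89939800 to 89959799). These 12 regions, too, were named for the size of the difference and for not overlapping, so their values are a description.

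Others among the 12 encode signalling proteins: Ralgds, an exchange factor for Ral (48.7 points), Gpr56, an adhesion receptor (43.9), Gpsm1, a G protein modulator (43.1), and the kinase Src (42.6). Trak1, an adaptor of mitochondrial transport along axons, differed by 43.8 points, and the actin regulator Coro2b by 43.5. Cxxc5, a CpG-binding protein, differed by 48.8 points, Zfp532 by 42.6, and Setd8, which methylates histone H4, by 42.0 points. These regions were longer than those of the other direction, from 7599 to 101399 bp. With the highest signal all 12 kept the direction and 7 the call, and Cxxc5, Ralgds, Trak1, Src and Setd8 were no longer called (2.64, 11.0, 3.07, 15.3 and 11.3 points, adjusted p = 0.79, 0.26, 0.67, 0.063 and 0.22).

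**Figure D2:**
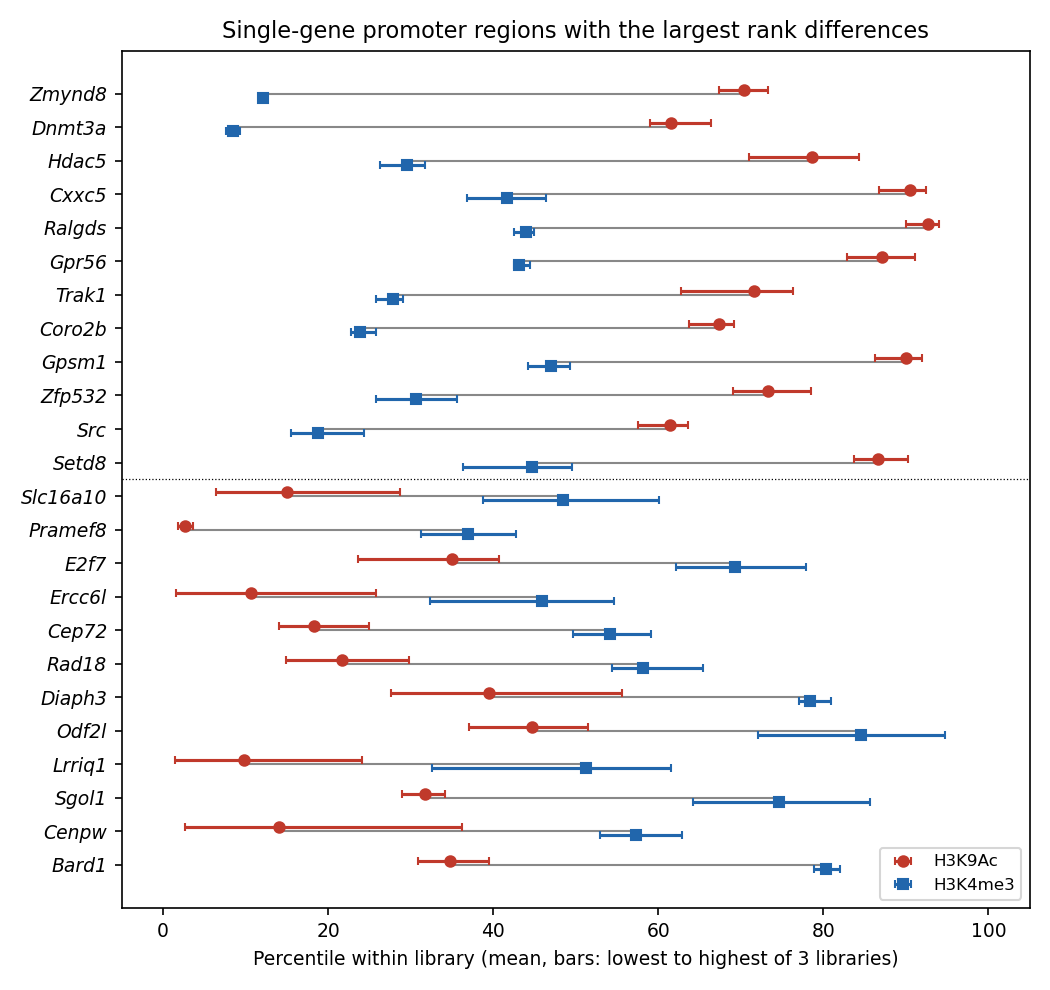
Percentiles within a library (x axis) of H3K9Ac (circles) and H3K4me3 (squares) at 24 single-gene promoter regions (y axis), shown as the mean with bars from the lowest to the highest of 3 control libraries. The 12 upper genes, Zmynd8 to Setd8, have H3K9Ac to the right, and the 12 lower ones, Slc16a10 to Bard1, have H3K4me3 to the right, with wide bars for Cenpw, Lrriq1 and Ercc6l among others.

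Away from gene starts, H3K9Ac ranked higher mainly inside genes. The distal class held 3611 regions that lay over 10 kb from any listed start or listed no gene. Of these, 28.4% were called with a higher H3K9Ac rank and 13.3% with a higher H3K4me3 rank. The shares were 17.5% and 16.0% among the 2019 with no gene listed, and 45.7% and 8.37% among the 1267 inside a listed gene. Ranked by highest signal, the shares inside a gene were 20.4% and 3.87%, against 5.47% and 5.00% of all regions. Over regions with intervals for both marks they were 17.8% and 4.36% of 528, against 13.6% and 9.45%. The largest difference lay in Nrxn2, which encodes the presynaptic adhesion protein neurexin 2, listed 70.9 kb inside the gene (chromosome 1, 228860000 to 228860799, 799 bp). Its H3K9Ac signals were 11.2, 8.48 and 9.73 and its H3K4me3 signals 1.31, 1.5 and 2.80, at percentiles 83.7 ± 3.3 and 6.37 ± 4.9. The difference was 77.4 ± 3.66 points (adjusted p = 0.00015).

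The other named regions of this kind lay in Man1c1, a mannosidase of the Golgi (63.0 points), in Coro2b (60.9), in Vps37b, a sorting protein of the endosome (60.3), and in Baiap2, a scaffold of dendritic spines (60.2). None of these 5 regions held a CpG island, and all 5 kept their call with the highest signal. Away from starts in the other direction stood regions by Taf1a, a factor of RNA polymerase I (-28.9 points), Zfp455 (-26.1), Tmed11 (-25.2), the muscle AMP deaminase Ampd1 (-24.2) and the kinase Rps6ka6 (-23.7). Of these, 4 held a CpG island, and with the highest signal Ampd1 reached 0.0498 points and Rps6ka6 -14.1 points (adjusted p = 0.996 and 0.0645), without a call. Zfp455 (adjusted p = 0.031) and Tmed11 (adjusted p = 0.034) were each no longer called without the first or the third library of either mark.

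The genes that write and erase the marks differed among themselves. Of 16 deacetylase and sirtuin genes with a member region, 6 had a higher H3K9Ac rank and 2 a higher H3K4me3 rank, with a median difference of 8.75 points. Over all 15095 genes with a member region, 3274 (21.7%) and 2262 (15%) were called, with a median of -0.14. Hdac1, the class I deacetylase of corepressor complexes, went the other way from Hdac5, with H3K9Ac signals of 5.83, 5.49 and 5.87 and H3K4me3 signals of 15.8, 19.7 and 17.9 (-18.6 ± 3.83 points, adjusted p = 0.0083). Its close relative Hdac2 stood at the top of both marks, at percentiles 99.2 ± 0.20 for H3K9Ac and 99.5 ± 0.16 for H3K4me3 (-0.31 ± 0.967 points, adjusted p = 0.84). Hdac3 (-5.15 ± 3.17 points, adjusted p = 0.25) and Sirt6, a sirtuin that acts on H3K9Ac (12.4 ± 4.44 points, adjusted p = 0.067), did not pass the test. With the highest signal, 2 of the 16 were called with a higher H3K9Ac rank and none with a higher H3K4me3 rank, and Hdac1 lost its call.

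Of 19 genes of H3K9 acetyltransferases and their SAGA and ATAC complexes, 1 was called with a higher H3K9Ac rank and 4 with a higher H3K4me3 rank (median -4.99 points). Kat2a, the acetyltransferase of SAGA, was the first, with H3K9Ac signals of 6.56, 4.99 and 5.54 and H3K4me3 signals of 7.28, 9.59 and 8.00 (13.0 ± 3.08 points, adjusted p = 0.014), in an 88799 bp region that lists 8 genes. When the highest signal was used, it stood at -6.54 points (adjusted p = 0.52), and it was not called without the third library of H3K9Ac or of H3K4me3 (adjusted p = 0.050 and 0.065). Fam48a, a SAGA subunit, differed by -24.9 ± 6.21 points and Taf5l by -18.4 ± 4.78 points (adjusted p = 0.018 and 0.021). Both lost their call with the highest signal. Fam48a also lost it without the second or the third H3K9Ac or the third H3K4me3 library, and Taf5l without the first H3K9Ac or the first or the second H3K4me3 library. Leaving out 1 library gave 0 to 2 and 1 to 3 called genes of the 19. Of 13 genes of H3K4 methyltransferases and demethylases, 1 was called: Men1, which encodes menin of the MLL complexes, at 23.0 ± 3.10 points. Kdm1a, which encodes LSD1, stood at percentile 38.3 ± 7.4 for H3K9Ac and 38.9 ± 5.5 for H3K4me3 (-0.60 ± 4.65 points, adjusted p = 0.94), and the demethylase gene Kdm5b at 95.9 ± 1.2 and 91.4 ± 2.5 (4.49 ± 1.74 points, adjusted p = 0.084).

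Many promoters of cell division genes had a higher H3K4me3 than H3K9Ac rank. The lists of these genes were drawn up after the leading genes had been seen, and 5 of the 12 leading genes are in the mitosis list and 2 in the recombination list. Of 83 mitosis and cytokinesis genes with a member region, 40 had a higher H3K4me3 rank and 4 a higher H3K9Ac rank, against 15% and 21.7% of all genes, and the median was -12.8 points. Without the genes of the 12, the counts were 35 and 4 of 78, with a median of -12.2. With the highest signal 27 and 1 of 83 were called (median -11.0), among regions with intervals for both marks 26 and 4 of 74, and in regions of at most 10 kb 21 and 0 of 58. Leaving out 1 library gave 27 to 42 and 2 to 4, with the lowest counts without the third H3K4me3 library. Bub1b, the kinase of the spindle checkpoint, had H3K4me3 signals of 3.97, 5.12 and 4.62 and H3K9Ac signals of 2.27, 2.41 and 2.01 (-18.0 ± 1.61 points, adjusted p = 0.0004). Kif22, a chromosome kinesin, was 1 of the 4 in the other direction (11.8 ± 1.71 points), in a region that lists 5 genes.

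Of 48 DNA replication genes, 17 (35.4%) had a higher H3K4me3 rank and 6 (12.5%) a higher H3K9Ac rank, against 15% and 21.7% of all genes (median -9.48 points). Mcm3, a subunit of the replicative helicase, had H3K4me3 signals of 7.21, 9.83 and 8.64 and H3K9Ac signals of 2.89, 2.31 and 2.67, at percentiles 37.8 ± 0.48 and 6.34 ± 1.8. The difference was -31.4 ± 2.21 points (adjusted p = 0.00028), and Mcm5 of the same helicase differed by -34.1 ± 3.63 points. Fen1, the nuclease that trims Okazaki fragments, was called the other way (34.4 ± 3.38 points), in a 130199 bp region with 6 genes. Of 35 genes of homologous recombination and the Fanconi pathway, 8 (22.9%) had a higher H3K4me3 rank and 5 (14.3%) a higher H3K9Ac rank (median -12.4 points). Rad54b was among the 8 (-25.4 ± 3.27 points). Among regions with intervals for both marks, a higher H3K4me3 and a higher H3K9Ac rank were called in 9 and 6 of 46 replication genes and in 7 and 4 of 34 recombination genes. Over all 11550 such regions they were called in 1092 and 1574. Mki67, the proliferation marker, is in the progenitor list and had H3K4me3 signals of 6.48, 10.5 and 9.21 and H3K9Ac signals of 3.14, 2.99 and 2.95, a difference of -24.9 ± 2.79 points (adjusted p = 0.00076). Mcm3, Mcm5, Bub1b, Rad54b and Mki67 kept their call with the highest signal.

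Within the progenitor list, 4 of 18 genes (22.2%) had a higher H3K9Ac and 5 (27.8%) a higher H3K4me3 rank, against 21.7% and 15% of all genes. The first share was close to that of all genes. The median of the list was -2.22 points, and 5.64 with the highest signal. Notch1, the receptor that maintains progenitors and acts in adult neurons and glia, had H3K9Ac signals of 9.53, 7.13 and 8.47 and H3K4me3 signals of 2.07, 2.74 and 2.34, in a region centred 25.7 kb inside the gene (64.9 ± 3.31 points, adjusted p = 0.00016). A region downstream of Nes, which encodes the progenitor filament nestin, lay 11.8 kb from its start and had H3K9Ac signals of 9.05, 5.90 and 8.94 and H3K4me3 signals of 1.19, 1.66 and 1.69 (66.9 ± 5.94 points, adjusted p = 0.0004). The table also lists that region with Bcan, the matrix proteoglycan brevican, and does not tell which of these genes it serves.

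By mean signal over their regions, regulators of body patterning were low in both marks. Of 96 developmental transcription factor genes other than Hox genes, 46 had a member region. Of these, 27 (58.7%) had a higher H3K4me3 rank and 5 (10.9%) a higher H3K9Ac rank, against 15% and 21.7% of all genes (median -7.40 points). Their median percentiles were 4.62 ± 0.55 for H3K9Ac and 19.0 ± 4.0 for H3K4me3 (SD of 3 libraries). The regions of these genes had a median length of 57399 bp, against 14399 bp for all genes. In regions of at most 10 kb, ranked among themselves, the median difference of the list was 17.3 points, in the other direction. Genes that entered through H3K4me3 intervals alone had to be low in H3K9Ac, so this count is a description. Among the 34 with intervals for both marks, 3 had a higher H3K4me3 rank and 4 a higher H3K9Ac rank (median -1.40 points). Lhx1, a factor of the early organizer and of cerebellar neurons, had H3K9Ac signals of 2.22, 1.97 and 2.07 and H3K4me3 signals of 3.39, 4.68 and 3.77 (-16.2 ± 1.36 points, adjusted p = 0.00033). Gbx2, a factor of the hindbrain border, differed by -10.6 ± 1.2 points. These 2 regions stood at percentiles 98.6 and 99.8 for the Polycomb mark H3K27me3. Over all regions with a higher H3K4me3 rank, 41.8% had H3K27me3 intervals in all 3 controls, against 28.5% of those with a higher H3K9Ac rank and 24.3% of all members, and the part of that mark in the difference was not tested.

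Of 39 Hox genes 6 had a member region, in 2 regions, and all 6 were called with a higher H3K4me3 rank, with Hoxd1 at -5.37 ± 1.07 and Hoxb13 at -10.3 ± 0.995 points. Of the 6 Hox genes, 5 were called with the highest signal, among them Hoxd1, and 1 in a fit without the mean-dependent prior and robust estimation. Among regions with intervals for both marks 1 Hox gene was left, and it was not called. By highest signal 6 of the 46 other factors had a higher H3K4me3 and none a higher H3K9Ac rank, and neither Lhx1 nor Gbx2 was among the calls. Choroid plexus markers were near the floor of acetylation. Of 10, 4 had a member region, at a median H3K9Ac percentile of 2.44 ± 0.33, and 3 were called with a higher H3K4me3 rank, among them the prolactin receptor gene Prlr (-18.5 ± 2.46 points). By highest signal 1 of the 4 was called, and among regions with intervals for both marks 0 of 3 (median -5.25 against -13.2 points).

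Genes of synapses and ion channels were compared with all genes, of which 21.7% had a higher H3K9Ac and 15% a higher H3K4me3 rank by mean signal. Higher H3K9Ac and higher H3K4me3 ranks numbered 12 and 3 of 41 synaptic vesicle genes (median 2.35 points), 10 and 1 of 30 postsynaptic scaffold genes (3.73), 9 and 4 of 23 glutamate receptor genes (5.61), 16 and 4 of 52 potassium channel genes (4.20) and 9 and 1 of 30 sodium, calcium and HCN channel genes (4.21). Of 14 GABA receptor genes 1 and 0 were called. Unc13a, which primes vesicles for release, had H3K9Ac signals of 11.2, 7.98 and 9.78 and H3K4me3 signals of 6.50, 7.54 and 7.37 (50.4 ± 3.78 points, adjusted p = 0.00029), while its relative Unc13b differed by -23.8 ± 4.65 points. Dlgap4, a scaffold of the postsynaptic density, had H3K9Ac signals of 4.83, 3.65 and 4.02 and H3K4me3 signals of 1.44, 1.5 and 1.59 (25.6 ± 2.25 points).

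The obligatory NMDA receptor subunit gene Grin1 differed by 20.3 ± 3.11 points, the metabotropic receptor gene Grm8 by -18.2 ± 4.23 points, and the potassium channel gene Kcnc4 by 17.2 ± 1.68 points. Under the highest signal, the counts of these groups fell to 0 and 0 of 41, 4 and 0 of 30, 0 and 0 of 23, 3 and 0 of 52 and 1 and 0 of 30. In regions of at most 10 kb, ranked among themselves, they were 0 and 1 of 15, 0 and 0 of 15, 4 and 0 of 10, 1 and 0 of 17 and 3 and 0 of 14. Of the genes named here Dlgap4 and Kcnc4 kept a call, and Unc13a, Unc13b, Grin1 and Grm8 did not. Grm8 also lost its call without the third H3K9Ac library (adjusted p = 0.055). Axon guidance genes were called in 23 and 3 of 65 cases, 3 and 0 with the highest signal, and 0 and 0 of 20 in regions of at most 10 kb. Sema4d, a semaphorin, was among the 23 with a higher H3K9Ac rank by mean signal (17.0 ± 1.52 points).

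Markers of cortical cell types were split by gene, beside 21.7% and 15% of all genes with a higher H3K9Ac and a higher H3K4me3 rank. Excitatory neuron markers were called in 7 and 2 of 25 cases. Tbr1, the factor of deep-layer neurons, had H3K9Ac signals of 14.2, 11.5 and 12.8 and H3K4me3 signals of 14.0, 22.8 and 19.5 (23.3 ± 2.73 points, adjusted p = 0.00085). Slc17a6, the vesicular glutamate transporter that is chiefly subcortical, differed by -13.3 ± 1.23 points. Of 18 inhibitory neuron markers 1 had a higher H3K9Ac rank and 3 a higher H3K4me3 rank, among them Prox1 (-12.7 ± 2.05) and Sp8 (-15.4 ± 2.65). Leaving out 1 library gave 0 to 1 and 2 to 4 called genes of the 18.

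Of 18 astrocyte markers 6 and 1 were called, and 3 and 0 with the highest signal. Oligodendrocyte, microglia and endothelial markers were called in 4 and 3 of 22, 4 and 1 of 14, and 5 and 6 of 16 cases. Among regions with intervals for both marks these counts were 4 and 0 of 21, 5 and 0 of 13, and 4 and 0 of 13, and the medians went from -4.93, -0.25 and -2.41 points to 0.593, 1.67 and 2.13. Among vascular genes the glucose transporter gene Slc2a1 differed by 25.7 ± 2.75 points and the pericyte receptor gene Pdgfrb by 21.2 ± 2.44, against -11.5 ± 1.36 for the pericyte channel gene Kcnj8 and -13.9 ± 1.92 for Emcn, a surface sialomucin of endothelium. With the highest signal Slc17a6, Kcnj8 and Emcn kept their call, and Tbr1, Prox1, Sp8, Slc2a1 and Pdgfrb did not.

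Among immediate early genes, which neurons switch on with activity, 8 had a higher H3K9Ac and 2 a higher H3K4me3 rank of 33 (24.2% and 6.06%, against 21.7% and 15% of all genes). Arc, a regulator of synaptic strength, had H3K9Ac signals of 10.8, 7.96 and 8.73 and H3K4me3 signals of 10.8, 16.2 and 13.0 (25.3 ± 3.31 points, adjusted p = 0.0012). Fos, a subunit of the AP-1 factor, had H3K9Ac signals of 6.67, 5.58 and 6.69 and H3K4me3 signals of 16.1, 23.5 and 17.5 (-15.1 ± 4.09 points, adjusted p = 0.025). Arc kept its call with the highest signal. Fos did not (-17.5 points, adjusted p = 0.19) and lost it without the first or the second library of either mark. Circadian clock genes were called in 7 and 0 of 19 cases, among them Nr1d1, a repressor of the clock (25.1 ± 2.40 points). By highest signal, 1 and 0 of the 19 were called, and Nr1d1 was not.

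Of 69 ribosomal protein genes, a housekeeping group, 22 had a higher H3K9Ac and 3 a higher H3K4me3 rank (31.9% and 4.35%, against 21.7% and 15% of all genes). Of 69 respiratory chain genes 15 and 5 were called, and the share with a higher H3K9Ac rank, 21.7%, was that of all genes. Rps15, a ribosomal protein gene, differed by 31.8 ± 3.57 points, but its region spans 261199 bp with 18 genes and 33 CpG islands. Proteasome genes (5 and 2 of 34), splicing factor genes (6 and 4 of 41), tRNA synthetase genes (4 and 0 of 21) and neurexin, neuroligin and contactin genes (4 and 1 of 26) were called in smaller shares than all genes in both directions. A higher H3K9Ac rank was called in 14.7%, 14.6%, 19.0% and 15.4% of them (21.7% of all genes). A higher H3K4me3 rank was called in 5.88%, 9.76%, 0% and 3.85% (15% of all genes). Of 16 Wnt ligand genes 3 and 5 were called, 31.2% with a higher H3K4me3 rank, and 2 and 0 with the highest signal. With the highest signal 2 and 0 of the 69 ribosomal and 0 and 0 of the 69 respiratory chain genes were called, and Rps15 was not. Without 1 control library, 8 to 13 of the 69 respiratory chain genes had a higher H3K9Ac rank.

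**Figure D3:**
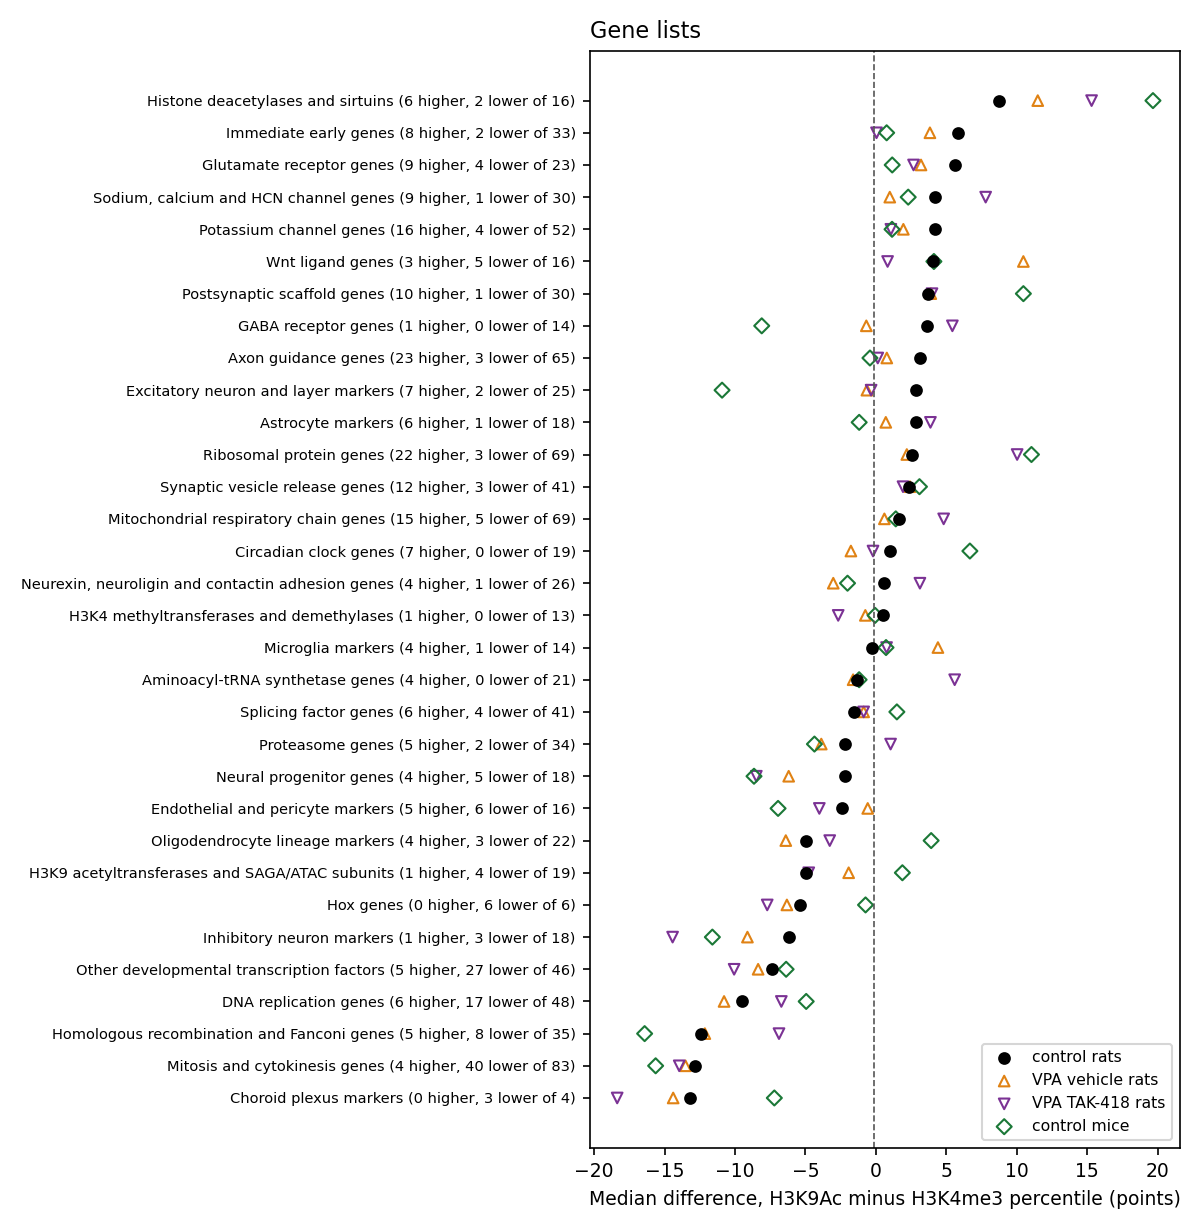
Median difference between the marks (x axis, percentile points) of each gene list (y axis, with its called genes of those with a member region in control rats) in control rats (filled circles), VPA rats given vehicle (upward triangles) or TAK-418 (downward triangles) and control mice (diamonds); the dashed line is the median of all genes in control rats. Mitosis, replication, recombination and developmental factor genes lie left of the line in all 4 groups, and deacetylase genes right of it.

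The length of a region and its CpG islands moved with the calls. Regions with a higher H3K9Ac rank had a median length of 22699 bp, those with a higher H3K4me3 rank 11999 bp and uncalled ones 8799 bp. Among regions over 50 kb, 49.1% were called with a higher H3K9Ac rank, and among promoter regions of at most 5 kb 2.42%, with 18.5% called the other way. Regions with 3 or more CpG islands were called in 47.5% and 9.78% of 777 cases, and those with 1 island in 8.76% and 17.1% of 7828. In regions of at most 10 kb, ranked among themselves, 753 of 6820 were called, and 1 and 0 of 22 ribosomal protein genes, 3 and 0 of 31 respiratory chain genes and 0 and 0 of 7 deacetylase and sirtuin genes. Ranked by highest signal, 10.2% of regions over 50 kb and 4.63% of those with 3 or more islands had a higher H3K9Ac rank, against 5.47% of all regions. Chromosome X stood apart in the other direction under both measures. Of its 466 regions, 3.65% had a higher H3K9Ac and 19.5% a higher H3K4me3 rank by mean signal, and 0.858% and 14.8% by highest signal.

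**Figure D4:**
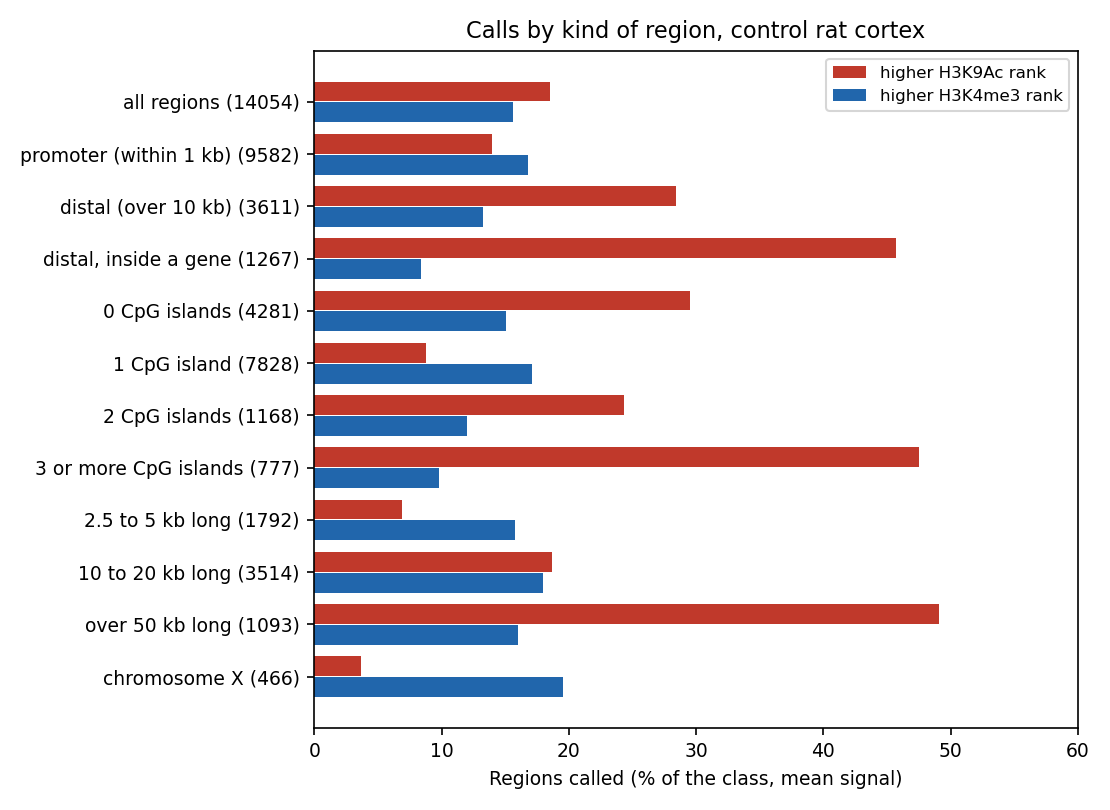
Percentage of regions called with a higher H3K9Ac rank (red) or a higher H3K4me3 rank (blue) by mean signal (x axis) in each kind of region (y axis, number of regions in parentheses). H3K9Ac leads inside genes, in regions with 3 or more CpG islands and over 50 kb, and H3K4me3 leads in regions with 1 CpG island and on chromosome X.

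The differences were measured again in libraries that had no part in the choice. The regions and their boundaries were the same, and mean signal was used. The highest signal was not tried in these groups. In VPA rats given vehicle, 3468 regions (24.7%) had a higher H3K9Ac and 4189 (29.8%) a higher H3K4me3 rank, 54.5% in all, and in those given TAK-418 3717 (26.4%) and 3911 (27.8%), 54.3% in all. Of the 2604 control regions with a higher H3K9Ac rank, 2368 (90.9%) and 2422 (93.0%) were called the same way in these groups. Of the 2199 with a higher H3K4me3 rank, 1869 (85.0%) and 1819 (82.7%) were. At most 6 of either set were called the opposite way in a group. In all 3 rat groups, 2278 regions were called with a higher H3K9Ac and 1610 with a higher H3K4me3 rank.

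The 12 promoters led by Zmynd8 were all called again in both groups, with differences of 36.4 to 65.8 points with vehicle and 41.1 to 71.0 with TAK-418. Of the 12 led by Bard1, 11 and 12 were called again. Of the 83 mitosis genes 55 and 52 had a higher H3K4me3 rank and 7 and 9 a higher H3K9Ac rank, with medians of -13.5 and -14.0 points. Of the 46 developmental factor genes 31 and 35 had a higher H3K4me3 rank and 3 and 3 a higher H3K9Ac rank. For other lists, counts with a higher H3K9Ac and a higher H3K4me3 rank were 25 and 15 with vehicle and 23 and 21 with TAK-418 for axon guidance genes, 18 and 9 and 17 and 13 for potassium channel genes, and 17 and 7 and 13 and 12 for immediate early genes. Excitatory neuron markers numbered 8 and 5 and 8 and 7, with medians of -0.64 and -0.34 points, and respiratory chain genes 18 and 18 and 27 and 5. Whether the lists differed between groups was not tested.

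In control mice, 7994 of 12836 regions chosen by the same rule (62.3%) were called, 3706 (28.9%) with a higher H3K9Ac and 4288 (33.4%) with a higher H3K4me3 rank. Of 2645 genes with a higher H3K9Ac rank in rats and a member region in mice, 2250 (85.1%) had a higher H3K9Ac rank in mice and 43 the opposite. Of 1661 genes with a higher H3K4me3 rank in rats, 945 (56.9%) had it in mice and 112 the opposite. Among all 12048 genes compared, 36.2% and 27.8% were called in mice. Spearman's rho of the difference across these genes, many of which share regions, was 0.626. Zmynd8 (71.9 points), Dnmt3a (45.9), Hdac5 (43.2) and Bard1 (-51.4) had the same direction in mice, and of 76 mitosis genes 48 had a higher H3K4me3 rank and 9 a higher H3K9Ac rank. Excitatory neuron markers did not follow. In mice 7 had a higher H3K9Ac and 13 a higher H3K4me3 rank of 25, with a median of -10.9 points against 2.82 in rats. Regions were called separately in each species, the H3K4me3 antibody was of another lot in mice, and the difference between species was not tested.

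The difference between the marks was also compared between rat groups, in 1 fit over 18 libraries. Between VPA rats given vehicle and controls no region passed (0 of 14054, 0%), with limma and at an unadjusted p under 0.05 in 1962. When the third H3K9Ac library of the VPA vehicle group was left out, 788 passed. Without the first or the third H3K9Ac or the second H3K4me3 library of the controls, 23, 1 and 2 passed, and without any of the 14 others 0. Between TAK-418 and vehicle 94 regions passed (0.669%), 76 (0.541%) with a larger and 18 (0.128%) with a smaller H3K9Ac excess after TAK-418, and 45 of the 94 were also called in controls. Leaving out 1 library gave 0 to 386. The count was 386 without the second H3K9Ac library of the TAK-418 group, and 0 without the third H3K4me3 library of that group or without the second H3K4me3 library of the vehicle group. Chosen from the 94 after their values were seen, the region at Omg, a myelin glycoprotein, went from -19.7 points with vehicle to 25.1 with TAK-418 (44.8 ± 6.59, adjusted p = 0.013), with 8.21 in controls. The promoter of Foxp2, a factor of deep-layer neurons, went from -3.33 to -36.6 points (-33.3 ± 5.21, adjusted p = 0.015), with -7.96 in controls. With the replicate number as a block, 0 regions passed between TAK-418 and vehicle. In that fit and in those without 1 library that gave 0, neither Omg nor Foxp2 was called.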

How the data were processed

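ChIP-seq signal of H3K9Ac and H3K4me3 in rat cortex was analysed. The submitters' processing notes name BWA 0.7.12 and the genomes rn5 (rat) and mm10 (mouse). No source used here names the peak caller or says how libraries were scaled to each other. The deposited values, per the file headers, are the mean and the highest signal of merged regions, whether an interval was called, the genes listed with their distance from the region's midpoint, and CpG islands. Read counts were not used here, so the depth is unknown and precision was judged from the 3 libraries of a group. Every library column was matched by name (0 unmatched).

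Mean signal was ranked within each library over the members. Percentiles of both marks were compared, 3 libraries against 3, with limma 3.58.1 in R 4.3.3 (mean-dependent prior, robust), with Benjamini-Hochberg adjustment over all members and a threshold of 0.05. A region within 1 kb of a listed start is a promoter region, and one over 10 kb away or with no gene listed is distal. A gene took the value of its nearest member region, so genes that share a region share its value. In simulated data for the control comparison, log2 signal was shifted by 0.5, 1 or 2 at 200 of 14054 regions. These shifts were recovered at 0%, 48.5% and 77%, with at most 6 false calls, so small differences were missed there. In the real data 34.2% of regions were called, which changes the adjusted threshold, so these recoveries need not carry over.

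Members and gene lists were chosen with earlier results of these data known, and 3 lists of cell division genes were added after the leading genes had been seen. The named genes were the 12 single-gene promoter regions and 5 distal regions with the largest difference in each direction among those called without overlap, in each list the 2 genes with the lowest p in each direction, and a fixed set of histone-modifying enzymes. Not all are given, and unnamed gene models were passed over. Alternatives changed the ranking, the members, the measure of signal, the fit and the libraries. H3K9me3, mice exposed to poly I:C and pooled input were not used here.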

Additional observations from a re-analysis of the deposited data

Results flagged for a closer look

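Between VPA rats given TAK-418 and those given vehicle, the difference between the marks itself differed in 94 of 14054 regions by the test of mark by treatment (limma, adjusted over all regions). Of these, 49 stood farther from the control value with vehicle than with TAK-418, and the others did not. The 94 regions were chosen for a difference between TAK-418 and vehicle, and the same share over all 14054 regions is not given. The count of 49 is therefore a description, and a return toward the control value was not tested.

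Epha10, an ephrin receptor gene of the axon guidance list, lay at 1 of the 94 regions. The difference between the marks at its promoter was -17.2 points in controls, -3.78 with vehicle and -24.7 with TAK-418, so that TAK-418 minus vehicle was -20.9 ± 4.13 points (SE, adjusted p = 0.034). Over 20 alternatives the adjusted p ran from 0.015 to 0.16, and 12 kept the call.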

How the results depend on the processing

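In control rats the 4803 calls became 1472 (769 with a higher H3K9Ac and 703 with a higher H3K4me3 rank) with the highest signal, 2666 (1574 and 1092) among regions with intervals for both marks and 753 (453 and 300) among regions of at most 10 kb, where fewer regions were tested. With centred and scaled log2 signal 4829 regions had a higher H3K9Ac value, and the share of calls in that direction was 75.2% in place of 54.2%. Leaving out 1 control library gave 3370 to 4733 calls in all, 1929 to 2578 with a higher H3K9Ac rank and 1441 to 2155 with a higher H3K4me3 rank, the lowest without the third H3K4me3 library. The count was 6375 to 8286 for VPA vehicle, 6323 to 7353 for TAK-418 and 6526 to 8841 in mice, 0 to 788 for exposure and 0 to 386 for treatment. Lists with a median above 0 numbered 17, 16 to 18 without 1 library, 20 with the highest signal or with both marks, 14 among regions that list 1 gene and 25 with centred and scaled log2 signal.

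Deviations from the mean of a mark correlated at -0.347, -0.325 and 0.0743 between same-numbered libraries of the marks. Between differently numbered libraries the correlations ran from -0.225 to 0.434. Deviations from a mean of 3 libraries constrain each other, so these values cannot tell whether the replicate numbers pair the marks. With the replicate number as a block, 3544 regions were called in controls, 7743 in VPA vehicle, 6603 in TAK-418 and 7855 in mice, with 0 for exposure and 0 for treatment (2071 at an unadjusted p under 0.05, limma).

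Of the genes examined one by one, the direction changed with the highest signal for Ampd1 (0.0498), Kat2a (-6.54), Kdm5b (-1.40), Rpl4 (6.92), Shank2 (4.55), Grik3 (7.52), Gjb6 (2.55), Sox10 (-5.66), Cry2 (-1.41), Hdac2 (1.80), Hdac3 (3.93) and Sirt6 (-1.63 points). With centred and scaled log2 signal it changed for Mal (0.0131), Opalin (0.233) and Hdac2 (0.723), among regions with both marks for Opalin (0.613) and among those of at most 10 kb for Kdm1a (2.42). Kdm1a ran from -4.53 to 2.79 without 1 library. The cause was not tested for any of these. Depth is unknown, and small differences are limited by the 3 libraries per mark.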
